A study of Mus musculus with 4 samples.

Results

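The regions described are the 9381 Malat1 ChIRP peaks on mouse chromosomes 3 (3536 peaks), 6 (3405) and 14 (2440), out of 77823 peaks in the whole list. They were chosen by chromosome, because an earlier reading of the same list gave these autosomes the fewest summits per Mb, so their low density is a description and was not tested. The peaks come from 4T1-TGL cells, a wild-type (WT) mouse breast cancer line of BALBC strain grown in DMEM/F12 medium. The series holds 4 libraries of these cells, 1 for each of the Even and Odd pull-downs with biotin-labelled oligonucleotides against Malat1, 1 LacZ pull-down and 1 Even input. The deposited peaks were called on 1 merged treatment against input. The sources used here do not name the merged pull-downs. The LacZ pull-down may be among them, and no peak was filtered against it here, so a peak need not be a site of Malat1. No library has peaks of its own here, so no value has a replicate error and no difference was tested. Peaks of 1 list are not replicates. The intervals given are 95% Wilson intervals and cover counting error only.

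Malat1 is a long noncoding RNA that stays in the nucleus, where it collects in nuclear speckles, bodies rich in splicing factors that lie next to active genes. ChIRP pulls the RNA down with antisense oligonucleotides and sequences the DNA that comes with it. Mouse chromosomes alternate between stretches dense in active genes and stretches with few genes, and they also carry clusters of duplicated genes, such as those for receptors of the immune system and of smell, whose copies are so alike that short reads are hard to place.

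Each peak is described by its tags (the count of treatment reads in it), its summit (the base of highest pileup) and its fold (the authors' ratio of the summit height to the local input). The implied input is the summit height divided by the fold and by the genome mean background, so 1 is the genome mean and the lowest value that can occur. The merged treatment held 851227 tags after duplicate removal and the input 50030325. Positions are those of mm10 (GRCm38), and genes are those of the RefSeq table of GRCm38.p6, an assembly of another strain (C57BL/6J).

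Sequences are shown first for promoters that a peak overlapped and then for a pair of promoters in the longest stretch without a summit. Of 4860 RefSeq promoter windows on the 3 chromosomes, 70 (1.44%) were overlapped by a peak, against 632 of 32619 (1.94%) on chromosomes 1 to 19 and X. This is a share of promoters and not of peaks. The share for windows placed anywhere was not computed, so it does not show that peaks avoid promoters. The 3 promoters below each belong to one of the chromosomes and were taken from the pair per chromosome whose peaks held the most tags, as those with more bases in the peak. The 250 bases before the start of the transcript are printed 5′ to 3′ from the RefSeq table of GRCm38.p6, with the bases inside the peak in capitals.
Lrba, chromosome 3, plus strand, chr3:86224440-86224689: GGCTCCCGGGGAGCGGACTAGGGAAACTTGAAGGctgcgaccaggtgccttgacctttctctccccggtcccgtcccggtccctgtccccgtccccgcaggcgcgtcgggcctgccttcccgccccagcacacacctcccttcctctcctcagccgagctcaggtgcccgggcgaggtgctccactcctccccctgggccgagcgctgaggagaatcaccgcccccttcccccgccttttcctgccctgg
Nt5c3, chromosome 6, minus strand, chr6:56901887-56902136: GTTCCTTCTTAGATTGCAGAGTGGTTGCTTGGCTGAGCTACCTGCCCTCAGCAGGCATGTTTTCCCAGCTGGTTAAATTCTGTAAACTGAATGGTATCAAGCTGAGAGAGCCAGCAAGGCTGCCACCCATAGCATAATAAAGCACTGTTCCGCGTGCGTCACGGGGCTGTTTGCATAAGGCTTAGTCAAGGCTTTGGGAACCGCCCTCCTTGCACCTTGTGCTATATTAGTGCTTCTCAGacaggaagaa
Gm33473, chromosome 14, plus strand, chr14:121994230-121994479: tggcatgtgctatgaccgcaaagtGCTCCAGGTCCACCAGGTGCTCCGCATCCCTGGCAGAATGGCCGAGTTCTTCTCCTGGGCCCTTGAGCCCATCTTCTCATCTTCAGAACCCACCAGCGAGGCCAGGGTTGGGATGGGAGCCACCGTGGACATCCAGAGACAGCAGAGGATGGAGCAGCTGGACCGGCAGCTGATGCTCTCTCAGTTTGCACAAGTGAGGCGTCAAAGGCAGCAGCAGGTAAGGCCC
The promoter of Lrba, a gene of vesicle trafficking, is that of a start inside the gene model, and the peak (86224270 to 86224473) held 15 tags at a fold of 329 and reached 34 of the 250 bases. Nt5c3 encodes a pyrimidine nucleotidase, and its peak (56901897 to 56902146) held 17 tags at a fold of 370 and covered 240 of them. The peak at the lncRNA Gm33473 (121994254 to 121994505) held 9 tags at a fold of 179.5 and covered 226. The 70 overlapped promoters had a median GC content of 54.0%, and the others on these chromosomes 51.3%. This difference was not shared by all 3. The medians were 51.3% and 51.7% on chromosome 3, 53.3% and 51.3% on chromosome 6, and 58% and 51% on chromosome 14 (21 overlapped promoters). Over chromosomes 1 to 19 and X they were 53.3% and 53%. The peaks at the 70 promoters held a median of 4 tags, the same as all peaks of each of the 3 chromosomes.

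The next pair lies in the longest summit-free stretch, on chromosome 14, and is shown as an example of promoters at full identity. It is not a measure of all 93 promoters of that stretch, which are described below. Capitals would mark bases that differ between the promoters, and there are none.
Gm41089, plus strand, chr14:5039323-5039572: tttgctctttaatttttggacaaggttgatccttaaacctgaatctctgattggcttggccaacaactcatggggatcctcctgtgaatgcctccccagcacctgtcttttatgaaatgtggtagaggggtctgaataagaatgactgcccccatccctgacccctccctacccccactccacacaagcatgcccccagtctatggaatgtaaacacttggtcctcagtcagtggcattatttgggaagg
Gm46469, minus strand, chr14:6851446-6851695: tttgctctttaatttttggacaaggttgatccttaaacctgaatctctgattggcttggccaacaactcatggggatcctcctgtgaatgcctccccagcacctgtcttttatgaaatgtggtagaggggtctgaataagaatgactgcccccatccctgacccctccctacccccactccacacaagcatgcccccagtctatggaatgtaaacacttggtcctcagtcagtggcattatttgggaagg
Both are lncRNA genes, and they face opposite ways on the chromosome. All 250 bases are identical (0 differing, 100% identity).

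Summit density separated chromosome 14 from the other two by more than it separated those from each other. Chromosome 14 held 20.1 summits per Mb over a span of 121.7 Mb, chromosome 3 held 22.5 over 156.9 Mb and chromosome 6 held 23.2 over 146.5 Mb. The density of chromosome 3 was thus 1.12 times and that of chromosome 6 1.16 times that of chromosome 14, and chromosome 6 stood at 1.03 times chromosome 3. The other 16 autosomes ran from 23.1 (chromosome 13) to 63.1 (chromosome 15), with a median of 31.3. All 3 together took 17.7% of the autosomal span and 12.2% of the autosomal peaks.

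With all peaks counted, the choice of chromosome 6 rests on where its first gene is placed. No summit of chromosomes 1 to 19 and X lay below position 3000104, but the gene table places 340 genes at 3 Mb or lower, 42 of them on chromosomes 3, 6 and 14. With those genes in the span, chromosome 6 had 22.8 summits per Mb and was the third sparsest autosome, just inside the rule, and chromosome 13 had 23.1, just outside it. Without them, as used here throughout, chromosome 6 had 23.2 and chromosome 13 again 23.1. By this measure chromosome 13 was the third sparsest and chromosome 6 the fourth, 1.01 times as dense. With all peaks, the name sparse therefore fits chromosomes 14 and 3 under both spans, and chromosome 6 no more than chromosome 13. Without 3-tag peaks, on the span used here, chromosome 6 had 13.9 summits per Mb and chromosome 13 had 14.2. At a MACS score of at least 100 they had 10.6 and 10.8, so their order depended on the peaks kept as well.

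**Figure D1:**
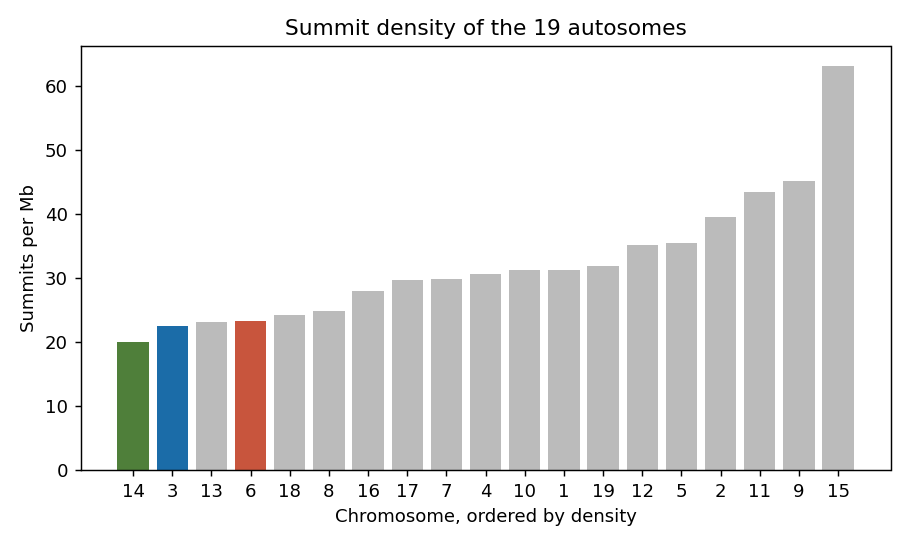
Summits per Mb (vertical axis) of the 19 autosomes, ordered from sparse to dense, 1 bar each from 1 merged list with no replicate error; chromosomes 14, 3 and 6 are coloured. Chromosome 14 is lowest at 20.1, and chromosomes 13 and 6 are almost level at 23.1 and 23.2.

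The peaks were fewer on these chromosomes, while a single peak was much like one elsewhere. The mean peak held 7.37 tags on chromosome 3, 7.22 on chromosome 6 and 7.37 on chromosome 14. On the other 16 autosomes this mean ran from 7.24 to 17.5, with a median of 7.80. Median tags were 4, median summit height was 3 tags and median length was 134 bp on each of the 3 chromosomes, which are also the medians over the other autosomes. Peaks with the fewest tags possible, 3, made up 38.9% of peaks on chromosome 3 (interval 37.3 to 40.6), 40.03% on chromosome 6 (38.4 to 41.7) and 38.0% on chromosome 14 (36.1 to 39.98), so the 3 intervals overlap. Tags in peaks per Mb followed the density, with 166 on chromosome 3, 168 on chromosome 6 and 148 on chromosome 14.

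Peaks with many tags were also at like shares. At least 30 tags were held by 92 peaks of chromosome 3 (2.60%, 2.13 to 3.18), 82 of chromosome 6 (2.41%, 1.94 to 2.98) and 61 of chromosome 14 (2.50%, 1.95 to 3.20). Together these were 235 of 9381 peaks (2.51%), against 4.01% of peaks on chromosomes 1 to 19 and X. The latter share includes chromosome 11, where 14.2% of peaks held that many, and the median over the other 16 autosomes was 3.28%.

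The local input at peaks was low, and it set the 3 chromosomes in another order than the density did. As a multiple of the genome mean, the median implied input reached 1.24 (chromosome 3), 1.19 (chromosome 6) and 1.13 (chromosome 14), against 1.13 to 2.37 over the other 16 autosomes (median 1.403). It lay within 0.1% of the lowest value that can occur at 14.5% of peaks on chromosome 3 (13.3 to 15.6), 19.2% on chromosome 6 (17.9 to 20.6) and 26.9% on chromosome 14 (25.2 to 28.7), and these intervals do not overlap. The median of this share over the other autosomes was 7.22%, and the highest was 24.6% on chromosome 18. Median fold ran the other way, with 154 on chromosome 3, 158 on chromosome 6 and 166 on chromosome 14. Fold divides by the local input, so the same height gives a larger fold where the input is low.

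Among the highest folds of the list these chromosomes appeared more often than among the highest tag counts. Of the 14 peaks that shared the first 10 ranks by fold, 7 lay on chromosomes 3, 6 and 14, and of the first 100 by fold 20 did, 12 of them at the lowest possible input. Of the 102 peaks that shared the first 100 ranks by tags, 1 did. These chromosomes held 12.1% of all peaks. Summit height reached at most 22 in the whole list, while tags reached 2818 in a peak of chromosome 19. Among peaks of like height, fold ranks by the input. The share of chromosome 11 in the ranks by tags was not computed, and 14.2% of its peaks held at least 30 tags.

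The single highest fold of the list, 1317, belonged to a peak of chromosome 6 (79788120 to 79788677, 102 tags, implied input 1.00) that lay outside annotated genes, 29.6 kb from the protein-coding gene model Gm20594. Its height was 22, the greatest of the list, so its fold is the largest that can occur at that height. The peak with the most tags of the 3 chromosomes was on chromosome 14 (8901319 to 8901955) with 137 tags and a fold of 1257. It lay outside genes too, 235 kb from the nearest protein-coding gene, Cfap20dc. On chromosome 3 the most tags, 130, were at 88751294 to 88752203 inside Syt11, a synaptotagmin gene of vesicle traffic, at a fold of 771. This was also the longest peak of the 3 chromosomes, at 910 bp.

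The other strongest peaks lay inside genes and outside them alike. On chromosome 3, Ntng1, which encodes the axon guidance protein netrin-G1, held a peak of 116 tags (109913920 to 109914430, fold 803). Tnni3k, a kinase gene of heart muscle, held one of 86 tags with a fold of 1257 (154885096 to 154885629), and the lncRNA 4930556A17Rik held one of 97 tags. The fifth on this chromosome, with 83 tags, was 132 kb from the nearest protein-coding gene, Pgrmc2. On chromosome 6 the peak with the most tags, 108, was 8.21 kb outside Creb5, a gene of the CREB transcription factor family (53708095 to 53708879, fold 771). Etv6, an ETS transcriptional repressor that is rearranged in leukaemia, held a peak of 95 tags (134183671 to 134184127, fold 743, implied input 1.77). Plekha5 held one of 74 tags, and 82 tags lay in a peak 157 kb from Lmcd1. On chromosome 14, Rcbtb2 held 108 tags (73182946 to 73183454, fold 924), Ccser2 94 (fold 1200) and Lrmda, a melanocyte differentiation gene, 84 (fold 1077). A peak of 90 tags was 58.2 kb from Ptpn20. Of these 15 peaks, 8 had their summit inside a protein-coding gene and 1 inside a lncRNA gene alone.

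Along each chromosome the summits rose and fell over stretches of several Mb. Windows of 1 Mb held from 5 to 57 summits on chromosome 3 (median 21, 157 windows), from 5 to 48 on chromosome 6 (median 22, 147 windows) and from 0 to 50 on chromosome 14 (median 19, 122 windows). The variance of these counts was 4.05 times their mean on chromosome 3, 4.99 times on chromosome 6 and 5.98 times on chromosome 14. Neighbouring windows resembled each other most on chromosome 14, where the rank correlation of a window with the next was 0.71 (121 pairs), against 0.49 on both chromosome 3 (156 pairs) and chromosome 6 (146 pairs). These coefficients are descriptions, since windows share 1 library and its depth. Windows with at most 10 summits made up 23.0% of chromosome 14 (28 windows), 11.6% of chromosome 6 (17) and 8.28% of chromosome 3 (13). Windows with at least 40 summits were 6, 13 and 8 in number on these chromosomes. Chromosome 14 therefore differed from the others by its many near-empty windows, while its fullest window held as many as 50 summits.

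**Figure D2:**
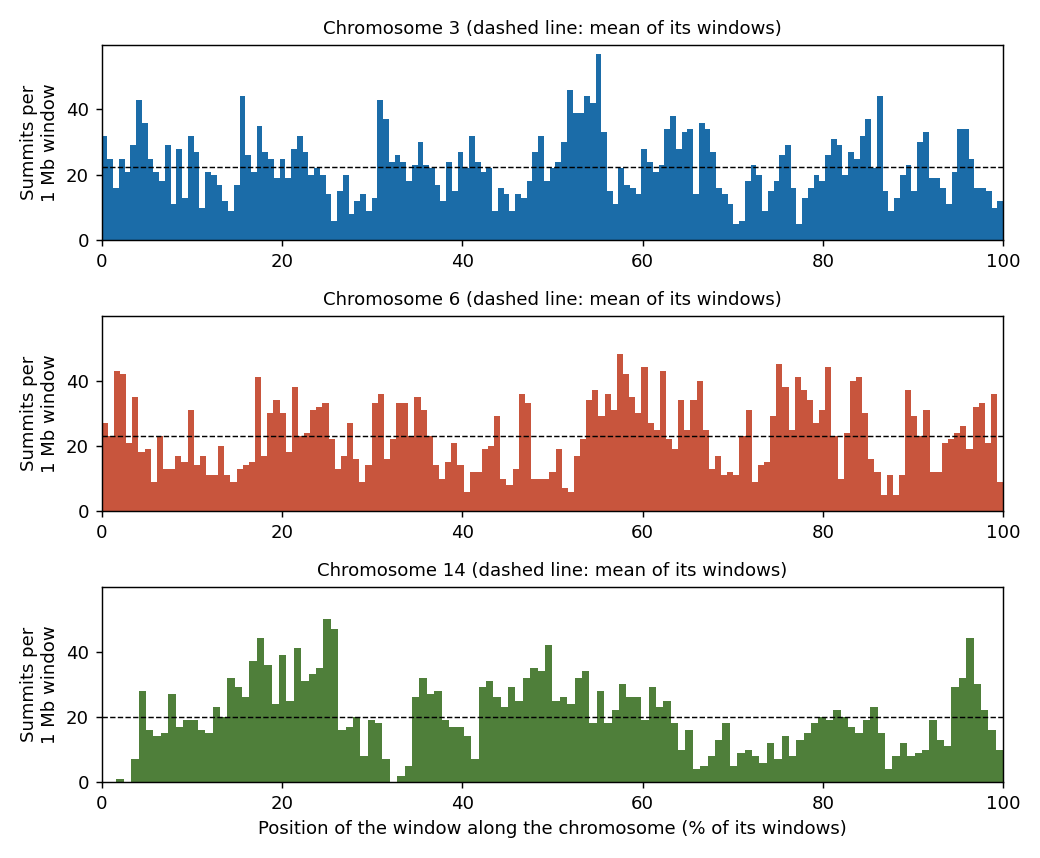
Summits in each 1 Mb window (vertical axis) along chromosomes 3, 6 and 14, with the position given as a percentage of the chromosome's windows and a dashed line at the mean of its windows (22.5, 23.2 and 20). Chromosome 14 has 4 empty windows, in its first part, and a long low stretch past its middle, while no window of chromosomes 3 and 6 is empty.

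Of the 28 windows of chromosome 14 with at most 10 summits, 20 lay in stretches of 2 kinds, both chosen for description after the values were seen. The first kind lay among repeated gene models. Windows at 3 to 8 Mb held 8 summits over 80 protein-coding genes, and windows at 41 to 45 Mb held 14 over 59. All 9 of these windows had at most 10 summits, and the 4 empty windows of the chromosome were among them. The second kind lay at 80 to 100 Mb, where 15 protein-coding genes started in 20 windows and 217 summits gave 10.85 per Mb. There 11 of 20 windows had at most 10 summits, and none was empty, with a range of 4 to 18. The other 8 windows with at most 10 summits lay elsewhere on the chromosome.

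The first kind held the longest gaps between summits. On chromosome 14 no summit lay between 5018509 and 7728699, a gap of 2.71 Mb, where the mean density of the chromosome would place 54.4 summits. This gap wholly held 44 protein-coding genes, of which 39 are named only as numbered gene models (Gm31035, Gm3248, Gm3629 and Gm21103 are the longest), and 24 pseudogenes. The second, of 2.07 Mb, ran from 41201238 to 43273274 over 27 protein-coding genes, with Gm2959, Gm8126, Gm8104 and 1700049E17Rik2 as the longest. The third, of 1.02 Mb, ran from 43798779 to 44821086, and besides gene models such as Gm5930 it held the eosinophil ribonuclease genes Ear1, Ear2 and Ear10 and the angiogenin genes Ang5 and Ang6.

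Many promoters in these gaps shared their sequence with other places in the promoter table. The measure was the share of a promoter's 25-base words that also occurs at another place in the promoter table, on either strand. The word length is the tag size that MACS took. The recorded read length is 76 nt, and a repeated 25-base word need not make a read of that length hard to place. At least 50% of words were so repeated in 81 of 93 promoters of the 2.71 Mb gap, 32 of 44 of the 2.07 Mb gap and 13 of 26 of the 1.02 Mb gap. The Gm41089 and Gm46469 promoters printed above are 2 of the 81. Over all promoters the share was 4.46% on chromosomes 1 to 19 and X, 2.26% on chromosome 3, 2.31% on chromosome 6 and 16.1% on chromosome 14. On chromosome 14 it was 67.6% in windows with at most 10 summits (184 of 272 promoters), 3.51% in windows with 11 to 39 (35 of 997) and 0 of 89 in windows with at least 40. The 3 gaps lie wholly in windows with at most 10 summits, so their repeated promoters are among the 184. The share fell in the same order on chromosome 3 (5 of 40, 12.5%; 2.31%; 0 of 213) and chromosome 6 (9 of 103, 8.74%; 2.21%; 1 of 272). The sources used here do not say how reads that match several places were treated, and the part of repeated sequence in the low counts was not tested. Without the windows at 3 to 8 and 41 to 45 Mb the density of chromosome 14 was 21.5 per Mb, and chromosomes 3 and 6 stood at 1.05 and 1.08 times it.

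Long gaps on chromosomes 3 and 6 were shorter and of mixed content. On chromosome 3 the longest, of 665 kb (93636377 to 94301220), held 8 protein-coding genes, all of the Tdpoz and Spopfm family of BTB domain proteins such as Tdpoz1, Tdpoz9, Spopfm2 and Tdpoz2, and 17 pseudogenes. Of its 6 promoters 4 were repeated. A gap of 602 kb (124417720 to 125019250) touched 1700006A11Rik and 1700003H04Rik, and one of 571 kb (15436294 to 16007627) held Sirpb1b, Sirpb1c and Gm5150, signal regulatory protein genes of myeloid cells. On chromosome 6 the longest, of 992 kb (61687574 to 62680059), was reached by Ccser1 and wholly held no protein-coding gene. The other long gaps of chromosome 6 lay in the natural killer gene complex. One of 683 kb (130367583 to 131050677) touched Klra1, Gm6590, Gm6600 and Gm38706. One of 564 kb (128533447 to 129097511) held A2ml1 and lectin-like receptor genes such as Clec2g, Klrb1 and Clec2h. By the 25-base measure 0 of 5 and 0 of 16 promoters in these gaps were repeated, so these gaps differ in that value from those of chromosome 14.

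The gene-poor stretch of chromosome 14 had the lowest input of all 10 Mb blocks of the 3 chromosomes. In its blocks at 80 to 90 and 90 to 100 Mb the median implied input was 1.00 in both, the lowest possible value, and 57.1% of the 217 peaks (50.5 to 63.5) lay at it. Median tags there were 4, the same as over the chromosome, and median fold was 179.5. The longest genes that start in it are Pcdh9, a protocadherin gene of neuronal adhesion, Diaph3, which encodes an actin-nucleating formin, Klf12, Klhl1, and Dach1, a developmental repressor. Protein-coding genes covered 13.9% of it, against 38.7% of the whole chromosome. Over 20 to 35 Mb of the same chromosome, in contrast, 529 summits gave 35.3 per Mb at a median implied input of 1.19, genes covered 66.1%, and 155 protein-coding genes started.

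Chromosome 3 had its dense stretch at 79 to 91 Mb, with 35.5 summits per Mb, 175 protein-coding genes and a median implied input of 1.36. Its fullest window, at 89 to 90 Mb, held 57 summits and 39 protein-coding genes, among them Kcnn3, a potassium channel gene, Ash1l, a histone methyltransferase gene, Ubap2l and Il6ra, the receptor gene for interleukin 6. The next were at 84 to 85 Mb with 46 summits (Fbxw7, which encodes a ubiquitin ligase subunit that targets cyclin E and MYC, and Trim2, Tmem131l and Arfip1) and at 27 to 28, 87 to 88 and 138 to 139 Mb with 44 each. These last hold Fndc3b, Pld1, Nceh1 and Ect2, then Arhgef11, Kirrel, Fcrl5 and Fcrl1, then Tspan5, Rap1gds1, Mttp and Adh7. The blocks at 40 to 50 Mb and 110 to 120 Mb were the sparsest of chromosome 3, with 140 and 137 summits in 10 windows each, and both had a median implied input of 1.08.

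Chromosome 6 was most even in its fullest windows. The highest count, 48, was at 87 to 88 Mb over Antxr1, Aak1, Arhgap25 and Gfpt1. It was followed by 45 at 113 to 114 Mb (Atp2b2, a plasma membrane calcium pump gene, Setd5, Fancd2, of the Fanconi anaemia repair pathway, and Irak2), and by 44 at 91 to 92 Mb (Nup210, Fgd5, Grip2 and Slc6a6) and at 121 to 122 Mb (Mical3, Iqsec3, Mug1 and A2m). The window at 5 to 6 Mb held 43 (Dync1i1, Ppp1r9a, Asb4 and Pon3). That last window lies in a stretch at 3 to 11 Mb whose median implied input, 1.46, exceeded that of every later 10 Mb block of the chromosome (1.07 to 1.20). The lowest input and fewest summits among the blocks were at 60 to 70 Mb, with 1.07 and 15.1 per window.

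Fullest windows of chromosome 14 were at 33 to 34 Mb with 50 summits (Wdfy4, Arhgap22, Frmpd2 and Mapk8, which encodes the stress kinase JNK1) and at 34 to 35 Mb with 47 (Grid1, Bmpr1a, a receptor gene for bone morphogenetic proteins, Wapl and Shld2). There were 44 summits each at 24 to 25 and 120 to 121 Mb. The former has Dlg5, Polr3a, E330034G19Rik and only the edge of Kcnma1, which ends at 24005110. The latter has Mbnl2, a splicing regulator gene, Ipo5, Rap2a and Oxgr1. Genes named with the fullest windows of each chromosome are the longest that touch them, so some lie mostly outside. The window at 63 to 64 Mb held 42 (Xkr6, Gata4, Pinx1 and Blk).

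**Figure D3:**
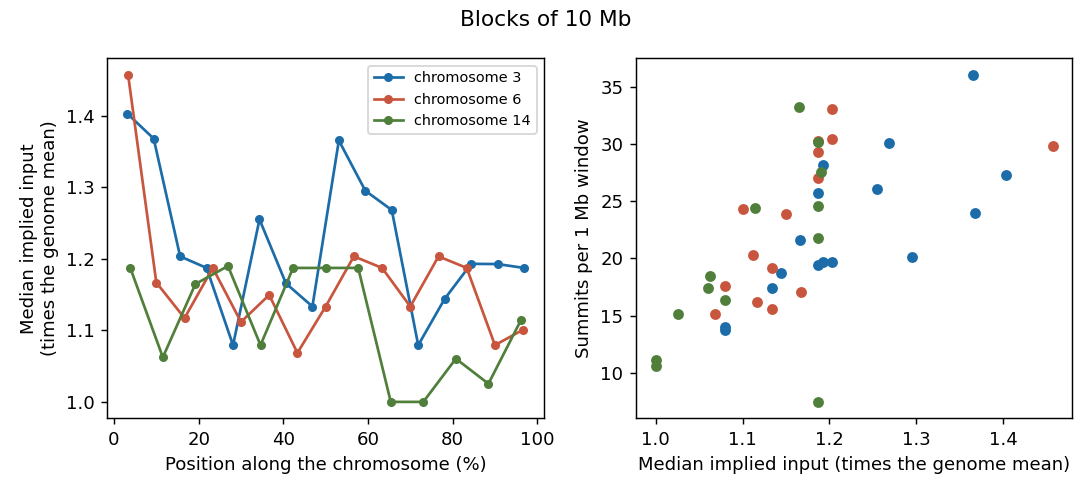
Left, median implied input (times the genome mean) of the peaks in 10 Mb blocks along each chromosome, with the position in percent of its blocks; right, the same input against the mean number of summits per 1 Mb window of the block. Chromosomes 3 and 6 start at 1.403 and 1.457, chromosome 14 falls to 1.00 in its sparse stretch, and the lone low point at an input of 1.19 is the first block of chromosome 14, with 7.43 summits per window.

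Windows with more summits had higher implied input on all 3 chromosomes. Spearman's coefficient was 0.59 on chromosome 3 (157 windows), 0.63 on chromosome 6 (147) and 0.61 on chromosome 14 (118 windows with a summit), and Pearson's was 0.61, 0.56 and 0.52. The input is known only at the peaks themselves, so both measures come from the same sites, and the part of the input in the density was not tested.

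Summits were also more numerous in windows with more gene cover. Spearman's coefficient of summits with the share of the window covered by protein-coding genes was 0.40 on chromosome 3, 0.40 on chromosome 6 and 0.46 on chromosome 14 (122 windows). When the windows of each chromosome were ordered by that share and cut into 3 groups of like size, the mean number of summits rose from 17.7 over 22.8 to 27.2 on chromosome 3, from 17.3 over 24.7 to 27.5 on chromosome 6, and from 14.4 over 19.9 to 25.85 on chromosome 14. The groups overlap widely: in the group of most genes the windows of chromosome 14 ran from 8 to 50 summits, and in the group of fewest from 0 to 44. Median implied input in the 3 groups, from fewest to most genes, was 1.12, 1.21 and 1.24 on chromosome 3, 1.08, 1.17 and 1.15 on chromosome 6, and 1.02, 1.13 and 1.13 on chromosome 14. It was lowest in the group of fewest genes on each chromosome, and the parts of gene content and input in the counts were not told apart.

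**Figure D4:**
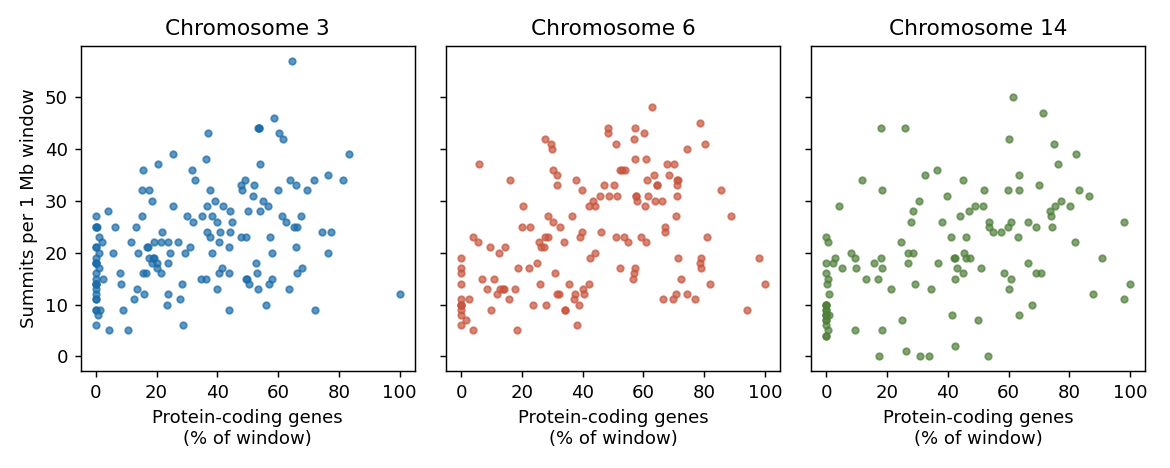
Summits per 1 Mb window (vertical axis) against the percentage of the window covered by protein-coding genes (horizontal axis), 1 point per window, for chromosomes 3, 6 and 14. Counts are higher in windows with more gene cover on each chromosome, with wide scatter, and the 4 empty windows of chromosome 14 have from 17.5% to 53.3% gene cover.

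Chromosome 3 was the most gene-poor of the 3, and the location of its summits followed. Protein-coding genes covered 32.8% of chromosome 3, the lowest of all autosomes, 42.2% of chromosome 6 and 38.7% of chromosome 14, at 6.26, 7.64 and 6.99 genes per Mb. Summits inside any annotated gene were 46.0% on chromosome 3 (44.3 to 47.6), 58.4% on chromosome 6 (56.8 to 60.1) and 54.6% on chromosome 14 (52.6 to 56.6), and the intervals do not overlap. Set beside the share of the span that such genes cover (41.4%, 51.8% and 48.5%), the ratio was 1.11, 1.13 and 1.12. Chromosomes that differed in their summits inside genes thus differed in gene cover by nearly the same factor. Within 1 kb of a gene end lay 6.59% of summits on chromosome 3 (5.82 to 7.46), 8.46% on chromosome 6 (7.57 to 9.44) and 7.46% on chromosome 14 (6.48 to 8.57), where these zones took 5.19%, 6.31% and 6.12% of the span.

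The share of protein-coding genes that had a summit, counting the body and 5 kb on either side, was lowest on the sparsest chromosome. It was 61.6% on chromosome 3 (606 of 983 genes), 57.4% on chromosome 6 (643 of 1120) and 48.7% on chromosome 14 (414 of 850), the lowest of all autosomes. The genes of chromosome 14 include 80 at 3 to 8 Mb and 59 at 41 to 45 Mb, the stretches of repeated gene models, which held 8 and 14 summits. The share without these genes was not computed. The 3 chromosomes together had a summit at 1663 of 2953 genes (56.3%), against 64.3% on the other 16 autosomes and 61.1% on chromosomes 1 to 19 and X. The share rose with gene length. Of genes under 10 kb on the 3 chromosomes 28.8% had a summit (26.0 to 31.7), of those from 10 to 50 kb 59.4% (56.6 to 62.1) and of longer ones 87.8% (85.2 to 89.9). On the other 16 autosomes these shares were 39.5%, 69.2% and 94.3%.

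The genes with the most summits were long. On chromosome 14 Cacna2d3, a calcium channel subunit gene, held 33 over 818 kb, Lrmda 30 over 1037 kb, Fhit, a tumour suppressor at a fragile site, 27 over 1612 kb, and Kcnma1, a potassium channel gene, and Grid1, a glutamate receptor gene, 26 each. On chromosome 6 Cntnap2, a neuronal adhesion gene of 2241 kb, held 31. Snd1, which encodes a nuclease of RNA silencing complexes, held 22, Ctnna2 and Cacna1c 20 each, and Dgki 19. On chromosome 3 Fndc3b held 22 over 295 kb, Lrba 21, and Ralyl, Mecom, a transcription factor gene of blood stem cells, and Maml3, a Notch coactivator gene, 18 each.

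Summits per Mb in these genes were not simply those of their chromosome. Fndc3b had 74.5, above the 22.5 of chromosome 3, whereas Cntnap2 had 13.8 and Fhit 16.7, below the 23.2 of chromosome 6 and the 20.1 of chromosome 14. Fhit and Cntnap2 had median implied inputs of 1.03 and 1.00, and Fndc3b of 1.29. The genes were picked by their counts, so these rates are descriptions.

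Peaks of high fold near gene ends lay at protein-coding and at lncRNA genes. Of the 5 per chromosome with the highest fold and a summit within 1 kb of an end of such a gene, 9 in all were nearest to a lncRNA end and 6 to a protein-coding end. The share of lncRNA ends among all such ends was not computed. Highest on chromosome 14 was Rcbtb2, named above, with its summit 830 bp from the gene's end, followed by the lncRNA Gm32587 (fold 598, 19 tags) and Tm9sf1 (528, 29 tags), and then Gm52093 and Gm30212. On chromosome 6 the lncRNA Gm33554 led with a fold of 616 and 30 tags. Cyp26b1, which encodes a retinoic acid hydroxylase, followed (84593470 to 84593755, fold 526, 19 tags), then Gm17089, Zfp239 and Clec4n, a lectin receptor gene of myeloid cells. On chromosome 3 the lncRNA Gm36603, 8.15 kb from Lef1, had a fold of 712 and 48 tags. Mttp, which encodes the triglyceride transfer protein of lipoprotein assembly, had 453 and 20 tags, and Gm35187, Gm46831 and AI504432 followed. Some of these summits lay inside another, protein-coding gene. Those named for Gm35187, Gm46831 and Gm17089 were inside Ddah1, St6galnac3 and Etv6, and that named for Tm9sf1 was inside Tssk4.

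Gene families that sit on these chromosomes were read against the share for all protein-coding genes, 56.3%, and, since most of their members are short, against the 28.8% for genes under 10 kb. Vomeronasal type 1 receptor genes, whose products sense pheromones, had a summit at 2 of 51 members, all on chromosome 6: Vmn1r39 (fold 328, 17 tags) and Vmn1r41 (fold 101, 6 tags). Of their 45 promoters 6 were repeated by the 25-base measure. Vomeronasal type 2 receptor genes, which are longer (median 31.6 kb), had one at 8 of 18, led by Vmn2r6 on chromosome 3 (fold 838, 18 tags), Vmn2r7, Vmn2r1 and Vmn2r2. Vmn2r2 lies within Vmn2r1 and shares its best peak. Bitter taste receptor genes had one at 9 of 33, close to the share for short genes, led by Tas2r106 and Tas2r125 (fold 239 each). Only 1 of them had a summit in its body. Neighbours share peaks here too: Tas2r104, Tas2r105 and Tas2r114 share one of 3 tags, and Tas2r108 and Tas2r137 have the same best peak of 4 tags. Olfactory receptor genes had one at 14 of 69, led by Olfr1508 on chromosome 14 (fold 1077, 52 tags), Olfr448, Olfr743 and Olfr434.

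Immune gene clusters differed among themselves. Lectin receptor genes of chromosome 6, most of them in the natural killer gene complex, had a summit at 21 of 53, and their median length was 14.5 kb. Klrk1, which encodes the activating receptor NKG2D, had the highest fold (526, 12 tags), followed by Clec4n, Clec4b2 and Klrg2. Segments of the antigen receptor loci, which are rearranged in lymphocytes and are short, are not counted among the protein-coding genes and had one at 11 of 108 (immunoglobulin kappa), 1 of 39 (T cell receptor beta) and 31 of 176 (T cell receptor alpha and delta), and neighbouring segments share peaks: Traj53 and Traj56 to Traj59 all had the same best peak of 43 tags and fold 628. Guanylate-binding protein genes, interferon-induced GTPases of chromosome 3, had one at 3 of 5 (Gbp5, fold 302; Gbp2 and Gbp2b share another of 18 tags), and Gimap genes, lymphocyte GTPases, at 3 of 8, led by Gimap8 (fold 419, 25 tags). Granzyme and mast cell protease genes of chromosome 14 had one at 4 of 15, led by Cma2, and ribonuclease A family genes at 5 of 20, led by Rnase13. Beta-defensin genes had one at 1 of 5, Defb47.

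Epithelial and metabolic families of chromosome 3 varied. Genes of the epidermal differentiation complex, which build the outer layer of the skin, had a summit at 14 of 48, like short genes at large, led by Lce1g (fold 294, 22 tags), Crnn, Sprr4 and Sprr2k. Genes of S100 calcium-binding proteins, some of which are released by tumour and myeloid cells, had one at 7 of 13, although 11 of the 13 are under 10 kb long. S100a5 and S100a6 share their best peak (fold 281, 21 tags), S100a8 had 8 tags and S100a9 4. Amylase genes had none at any of 7, and 5 of their 8 promoters were repeated. Alcohol dehydrogenase genes had one at 3 of 6, each of 3 tags (Adh4, Adh6b and Adh7), Clca genes at 4 of 7, led by Clca1, and histone genes at 3 of 12, all from 1 peak of 5 tags shared by H2ac20, H2ac21 and H2bc21. Transporter genes of the Slco1 family on chromosome 6 had one at 4 of 6, none above a fold of 179.5.

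Among developmental and adhesion genes the long ones held the most summits. Of the Hoxa genes, body axis transcription factors of chromosome 6, 5 of 11 had a summit, and Hoxa3, Hoxa6 and Hoxa7 share a peak of 19 tags (fold 199.01). Both glypican genes of chromosome 14, Gpc5 and Gpc6, which exceed 1 Mb each, held summits in numbers (19 and 11, best folds 479 and 525). Protocadherin and Slitrk genes had one at 4 of 10: Pcdh9 with 10 summits and a best fold of 718 (35 tags), and Slitrk1, Pcdh17 and Slitrk5 with at most 2 each. The heart myosin genes Myh6 and Myh7 both had one. Wnt ligand genes had one at 3 of 6, Wnt5b, Wnt5a and Wnt7a, and none was found at Wnt2, Wnt2b or Wnt16.

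Oncogenes, tumour suppressors and cell cycle genes had a summit at 23 of 34, with a median length of 63.3 kb. Of all protein-coding genes on these chromosomes, 87.8% of those over 50 kb had one and 28.8% of those under 10 kb, a length that 10 of the 34 have. Foxp1, a forkhead repressor gene of chromosome 6, had 15 summits with a best fold of 998 (71 tags). Nrg3, which encodes an ERBB4 ligand, and Gata4, a cardiac and endodermal transcription factor gene, both on chromosome 14, had best folds of 838 with 39 and 33 tags, and Etv6 had 743. At lower folds, Met, the receptor gene for hepatocyte growth factor, had 3 summits (best fold 241, 20 tags), Pik3ca 2 (193, 15 tags), Notch2 6 (386, 25 tags), Rb1 7 (226, 5 tags) and Ezh2 1 (355, 35 tags); these were named after their values were seen. The 11 without one include Nras, Sox2, Mcl1, Ccna2, Ccnd2, Cdkn1b and Bap1, and the longest of these, Ccnd2, is 27.0 kb long.

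**Figure D5:**
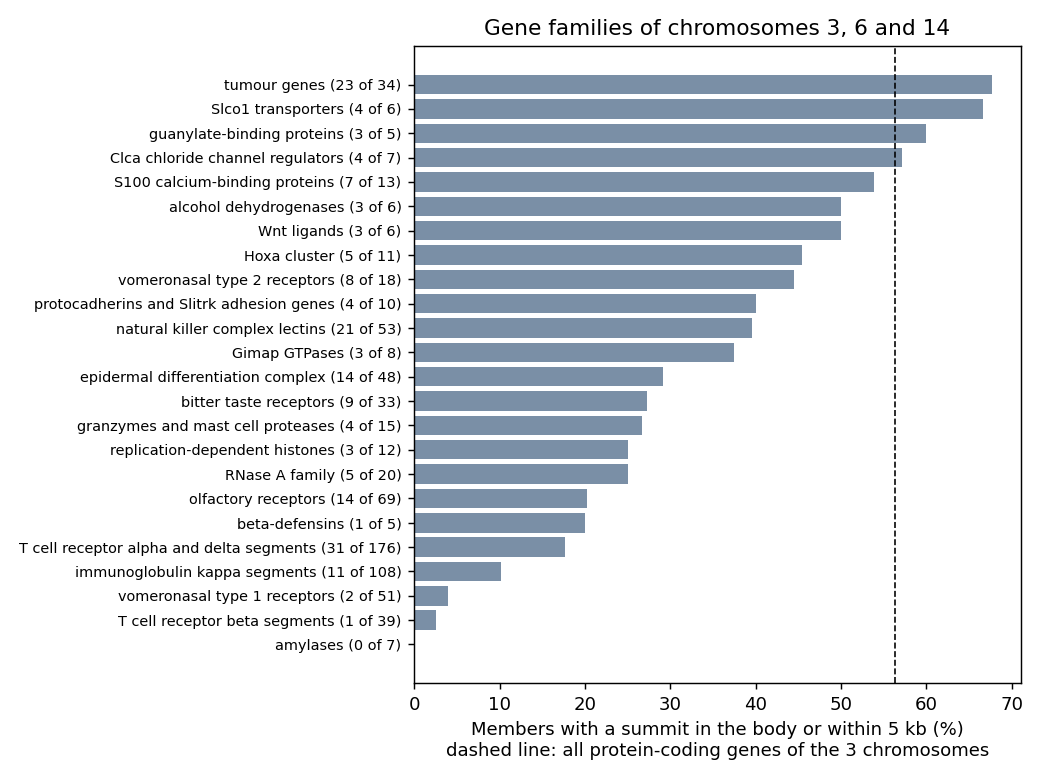
Percentage of the members of each family of at least 5 genes that had a summit, counting 5 kb on either side (bars, with the counts beside the names) on chromosomes 3, 6 and 14; the dashed line marks all 2953 protein-coding genes of these chromosomes at 56.3%. Amylases (0 of 7), T cell receptor beta segments (1 of 39) and vomeronasal type 1 receptors (2 of 51) lie at the bottom, and the tumour genes (23 of 34) at the top. The bars are not adjusted for gene length: of all protein-coding genes there, 28.8% under 10 kb and 87.8% over 50 kb had a summit. Antigen receptor segments are not among the genes of the dashed line.

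None of the 116 miRNA hairpins on these chromosomes was overlapped by a peak. Hairpins are short and the share overlapped elsewhere was not computed, so this count is not a result about miRNA genes. A summit lay within 5 kb of 9 of 45 miRNA hairpins on chromosome 3, 19 of 39 on chromosome 6 and 8 of 32 on chromosome 14. Together these were 36 of 116 (31%), against 36.9% of hairpins on the other 16 autosomes and 33.2% on chromosomes 1 to 19 and X. Among them, chosen after the values were seen, were the neighbours Mir183 and Mir96 on chromosome 6, where a summit of a 4-tag peak lay within 1 kb of both, and Mir200c and Mir141, epithelial miRNAs, with a 3-tag peak near both. The cluster from Mir17 to Mir92-1 on chromosome 14, an oncogenic miRNA group, had its nearest summit 28.4 to 29.1 kb away.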

How the data were processed

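The authors called peaks with MACS 1.4.4 on 1 merged treatment against 1 input (tag size 25 bp, fragment length 53 bp, p cutoff 1e-05, larger data set scaled to the smaller), per the file headers; the submitters' processing notes name the build mm10 (GRCm38). Which pull-downs were merged and the aligner are not given in the sources used here. The deposited tag count is a raw count per peak, the deposited fold enrichment is a ratio to local input, the deposited summit height is a signal (pileup), and the deposited score is the negative log10 of the caller's p, multiplied by 10. The deposited FDR is 0 percent for every peak. The 3 lists agreed peak by peak. Depth was 851227 treatment tags and 50030325 input tags.

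From these values, densities, 1 Mb windows from 3 Mb on, gene classes (summit within 1 kb of a gene end, in a protein-coding gene, in another gene, outside), gene counts with 5 kb flanks and 25-base promoter words were computed with Python 3.11.15, pandas 2.3.3, numpy 2.4.6 and scipy 1.17.1. The gene classes were checked on data with known answers. The implied input used a mean background of 0.0167 tags per fragment length, from an effective genome size of 2.7 Gb. Genes that the RefSeq table places at or below 3 Mb were left out, which the fixed design did not foresee. No test was run, since 1 merged list has no replicates. Named items were, per chromosome, the 5 peaks with the most tags, the 5 of highest fold near gene ends, the 5 genes with the most summits, the 5 fullest windows and the 3 longest gaps, and up to 4 members of each family by fold. Members and lists were chosen with earlier results of these data known. Alternatives covered peak thresholds, window sizes, spans and gene distances.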

Additional observations from a re-analysis of the deposited data

How the results depend on the processing

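No paired analysis was possible because the data are 1 merged peak list with no values per library. Of 80 values recomputed under an alternative, 61 stayed within their counting interval or limit and 19 moved. Leaving out the 2 repeated stretches of chromosome 14, chosen after the data were seen, brought the density ratio of chromosome 3 to 14 from 1.12 to 1.05 and that of chromosome 6 to 14 from 1.16 to 1.08. The density ratio of chromosome 6 to 3 was 1.03 with all peaks and 1.00 among peaks with a score of at least 100, so their order was not kept. Within 5 kb of a gene end lay 25.4%, 28.8% and 26.6% of summits on chromosomes 3, 6 and 14. On chromosome 14 the share within 1 kb fell to 6.42% without 3-tag peaks and to 5.98% at a score of at least 100. At that score 39.6%, 39.4% and 33.1% of protein-coding genes of chromosomes 3, 6 and 14 had a summit, against 61.6%, 57.4% and 48.7% with all peaks. All 3 shares fell, though only that of chromosome 3 passed its limit, and chromosomes 3 and 6 were then almost level. The rank correlation of summits with implied input was lower at that score (0.45, 0.44 and 0.41 on chromosomes 3, 6 and 14), in 500 kb windows (0.48, 0.46 and 0.38) and, without 3-tag peaks, on chromosomes 6 (0.51) and 14 (0.44). With coding cover it was 0.57 on chromosome 14 in 2 Mb windows. In 500 kb windows of chromosome 14 the coefficients with coding cover and with input were level (0.38 each). The variance over the mean on chromosome 14 was 10.8 in 2 Mb windows and 3.76 in 500 kb windows. The median peak holds 4 tags, so the absence of a summit at a gene shows only that none was called at this depth.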
